A study of Homo sapiens with 6 samples.

Results

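The 10 genes described here code for the cyclins and kinases that carry a cell through G1 into S phase, together with one of their activators and the transcription factor they release. They were chosen by gene symbol as CCND1, CCND2, CCND3, CDK4, CDK6, CCNE1, CCNE2, CDK2, CDC25A and E2F1. All 10 had 1 row each among the 19907 gene names counted. The counts came from sequencing of total RNA, depleted of its ribosomal part, from U2OS, a human osteosarcoma line. Every library carried a stable GFP-DCP1a transgene, a tagged subunit of the mRNA decapping complex, and the cells were grown under G418 selection. In the rescue group (2 libraries) cells spent 4 h in medium with 300 mM sodium and then 4 h in isotonic medium with 150 mM sodium. In the hypertonic group (2 libraries) they were taken after the 4 h at 300 mM sodium, and in the isotonic group (2 libraries) after 4 h in mock-supplemented medium at 150 mM sodium. No isotonic cells of the later time are among these libraries, so the rescue and the later harvest cannot be told apart. In such bulk samples, fewer cells in a given state and less RNA per cell cannot be told apart either.

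In G1, D-type cyclins bind and activate CDK4 and CDK6, which phosphorylate the retinoblastoma protein. This frees E2F transcription factors such as E2F1, whose known targets include the genes for cyclin E, the phosphatase CDC25A and E2F1 itself. Cyclin E then activates CDK2, CDC25A removes the inhibitory phosphates from CDK2, and DNA replication begins. Inhibitors of the CDKN1 and CDKN2 families hold these kinases back, and U2OS cells are known to lack p16, the inhibitor made from CDKN2A.

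Library totals lay between 90196278 and 105991428 counts. The libraries labelled hypertonic and isotonic did not group by their labels. Among the 10 genes, the widest difference between hypertonic 2 and isotonic 1 was 1.06-fold (CCND3), and that between hypertonic 1 and isotonic 2 was 1.06-fold (E2F1). Within a label the widest was 1.75-fold between hypertonic 1 and hypertonic 2, and 1.68-fold between isotonic 1 and isotonic 2, both for CCND3. The rescue libraries differed from each other by at most 1.10-fold (CDK6). All libraries were kept under their labels, and each value below belongs to the library labelled with that condition. Whether the libraries of a label stem from separate cultures is not said, so p-values measure only the spread between these libraries. Bone lineage markers summed to 1699 and 1606 CPM in rescue, 1674 and 1975 CPM in hypertonic and 2000 and 1571 CPM in isotonic libraries, with 5 of 8 at 1 CPM or more. Epithelial markers summed to 19.4 and 18.0 CPM in rescue, 5.88 and 7.11 CPM in hypertonic and 7.62 and 5.44 CPM in isotonic libraries, with 3 of 5 at 1 CPM or more somewhere. Endothelial markers, all 4 at 1 CPM or more somewhere, summed to 32.3 and 31.4 CPM in the rescue libraries and stood at 28.2 and 7.93 CPM in hypertonic 1 and 2 and at 8.24 and 28.97 CPM in isotonic 1 and 2. Leukocyte markers, 2 of 5 at 1 CPM or more somewhere, summed to 3.60 and 3.01 CPM in rescue. They summed to 2.99 and 0.589 CPM in hypertonic 1 and 2 and to 0.475 and 2.87 CPM in isotonic 1 and 2. The part of these other lineages in the results below was not tested.

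Levels are given as CPM, the count scaled by the library total. Fold changes come from the edgeR quasi-likelihood test with TMM scaling, which multiplied the library totals of rescue by 1.14 and 1.15 and those of the other libraries by 0.885 to 0.986. The fold changes of rescue therefore lie lower than the ratios of CPM. With library totals alone, the median log2 fold change of rescue against isotonic over all 18208 genes tested was 0.27, against -0.02 with TMM scaling.

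**Figure D1:**
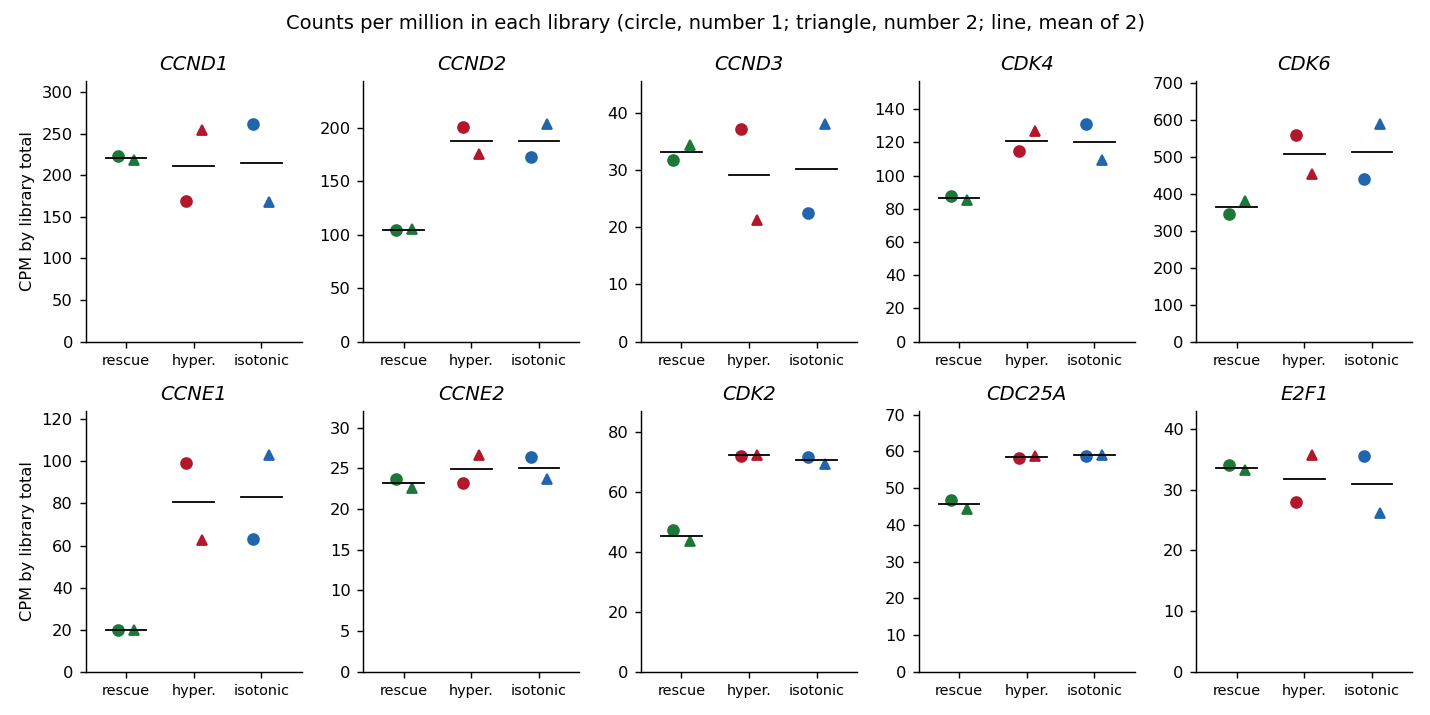
CPM by library total (vertical axes, from 0) of the 10 genes in the 2 rescue, 2 hypertonic and 2 isotonic libraries; circles are number 1, triangles number 2, and lines the mean of the pair. The rescue pair lies below all 4 other libraries in the panels of CCND2, CDK4, CDK6, CCNE1, CDK2 and CDC25A, and number 1 and number 2 stand in opposite order under the hypertonic and isotonic labels in most other panels.

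Several of these genes had lower relative transcript levels in the rescue libraries than in those of both other groups. The E-type cyclin gene CCNE1 was the lowest of them relative to the isotonic group. On the library total scale, 6 of the 10 genes were below all 4 other libraries in both rescue libraries (CCND2, CDK4, CDK6, CCNE1, CDK2 and CDC25A), beside 21.8% of all genes tested. None of the 10 was above them, beside 46.9% of all genes. With TMM scaling CCNE2 joined these 6, beside 33.6% of all genes. By the edgeR test, 5 of the 10 fell in rescue against isotonic (CCND2, CDK4, CCNE1, CDK2 and CDC25A) and none rose, beside 23.1% of all genes that passed, 13.5% lower and 9.61% higher. The median log2 fold change of the 10 was -0.72, and that of all genes -0.02. With either rescue library or either isotonic library left out, 0 of the 10 and 0 of all genes passed by edgeR, with 3652 to 6572 genes at an unadjusted p under 0.05. With the replicate number as a block, 0 passed as well, with 4896 genes at an unadjusted p under 0.05, while DESeq2 without the block called 7 of the 10 (CDK6 and CCNE2 in addition), beside 38.7% of all genes. In fits that kept both rescue libraries and only the other libraries of number 1, or only those of number 2, 79.1% and 80.8% of all genes passed (38.6% and 40.1% lower, 40.5% and 40.7% higher), and the 5 were lower in rescue in both. These fits share the rescue pair and take the spread from it, so they are not independent of each other.

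The comparison of rescue with hypertonic shares the rescue libraries with the one above. There too CCND2, CDK4, CCNE1, CDK2 and CDC25A fell and none rose, beside 23.6% of all genes that passed, 13.8% lower and 9.86% higher. Against hypertonic 1 alone and hypertonic 2 alone, where 81.4% and 79.1% of all genes passed (40.5% and 38.6% lower, 41.0% and 40.5% higher), the 5 were again lower in rescue. With either rescue or either hypertonic library left out no gene passed by edgeR, with 3675 to 6631 genes at an unadjusted p under 0.05, nor with the block (4984 genes). Against the mean of the isotonic and hypertonic groups, a contrast whose direction does not depend on how these 2 labels were assigned, the same 5 fell and none rose, beside 31.6% of all genes that passed, 17.0% lower and 14.6% higher.

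Among the D-type cyclins, CCND2 was the one that fell. CCND2 (chr12:4273772-4305350, plus strand, GRCh38) stood at 104 and 105 CPM in the rescue pair, with 200.2 and 175 CPM in hypertonic 1 and 2 and 172 and 203 CPM in isotonic 1 and 2. Both rescue libraries lay below every other library. Its level was 2.21-fold lower in rescue than in isotonic (log2 fold change -1.14, SE 0.194; edgeR quasi-likelihood test, adjusted p = 0.0229) and 2.22-fold lower than in hypertonic (adjusted p = 0.0223 by the same edgeR test). The span of CCND2 lies within that of another row, AC008012.1, on the same strand, which had 310.3 and 313 CPM in the rescue pair, 246 and 236 CPM in hypertonic and 235 and 249.8 CPM in isotonic libraries. That row was thus highest in rescue, where CCND2 was lowest. Reads of AC008012.1 within the shared span cannot be told apart from those of CCND2.

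CCND1 (chr11:69641087-69654474, plus strand), the D-type cyclin with the most counts in rescue, did not pass the test. It was at 223 and 219 CPM in the rescue pair, with 169 and 254 CPM in hypertonic 1 and 2 and 261 and 168 CPM in isotonic 1 and 2. The rescue values lay between the low and the high library of each other group. The log2 fold change against isotonic was -0.24 (SE 0.235; edgeR, adjusted p = 0.516) with TMM scaling and 0.04 with library totals, so its sign depended on the scaling. The log2 fold change of the rescue pair against isotonic 1 alone was -0.46, past the edgeR threshold, and that against isotonic 2 alone was 0.03, which was not. The last 1399 bases of its span are shared with LTO1 on the opposite strand, a row at 91.5 and 89.3 CPM in the rescue pair, with 52.9 and 89.4 CPM in hypertonic libraries and 92.0 and 55.5 CPM in isotonic libraries.

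CCND3 (chr6:41934933-42050357, minus strand), the third D-type cyclin gene, was at 31.8 and 34.5 CPM in the rescue pair, with 37.3 and 21.2 CPM in hypertonic 1 and 2 and 22.6 and 38.0 CPM in isotonic 1 and 2. Here too rescue lay between the libraries of each other group, but the high and low libraries were the reverse of those for CCND1. The log2 fold change against isotonic was -0.19 (SE 0.452; edgeR, adjusted p = 0.795), and it was 0.03 with upper quartile scaling and 0.13 with library totals. CCND3 was higher in the rescue pair than in isotonic 1 alone (0.33) and lower than in isotonic 2 alone (-0.57), each past the edgeR threshold.

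The make-up of the D-type cyclin counts differed accordingly. CCND1 gave 62.1% (95% Wilson interval 61.6 to 62.6) and 61.1% (60.6 to 61.6) of them in rescue 1 and 2, 41.5% (41.1 to 42.0) and 56.4% (55.9 to 56.8) in hypertonic 1 and 2, and 57.3% (56.8 to 57.7) and 41.0% (40.5 to 41.5) in isotonic 1 and 2. CCND2 gave 29.1% and 29.3% in rescue, 49.3% and 38.9% in hypertonic, and 37.8% and 49.7% in isotonic libraries. The share of CCND1 was thus higher, and that of CCND2 lower, in both rescue libraries than in any other. CCND3 made up 8.85% and 9.62% in rescue, 9.18% and 4.72% in hypertonic, and 4.96% and 9.30% in isotonic libraries, so its shares overlapped. These intervals cover counting error only, and the shares depend on the lengths counted for each gene, which cancel only when one gene is compared between libraries.

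**Figure D2:**
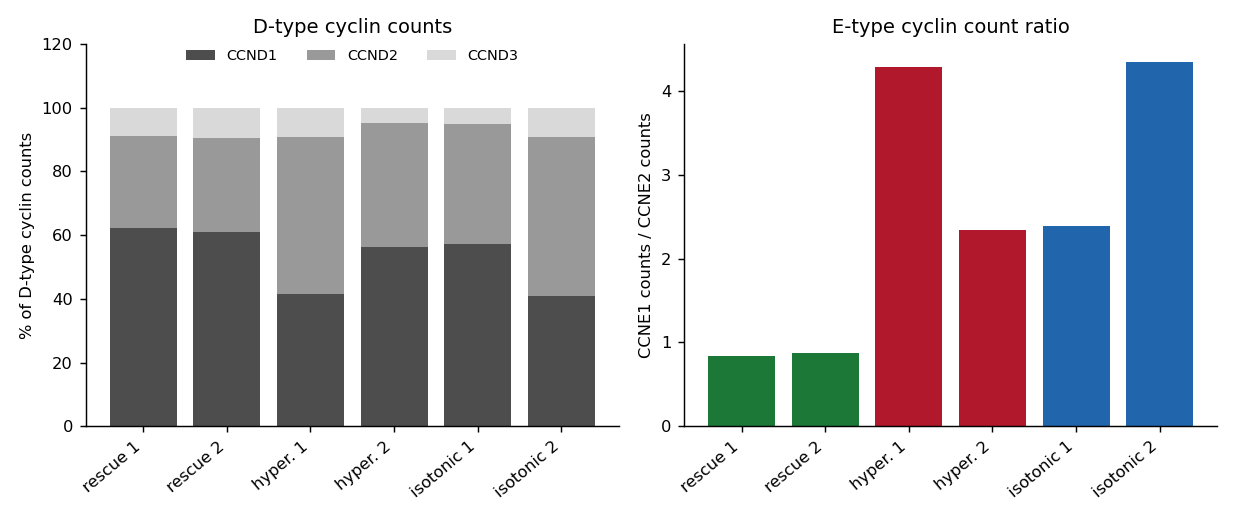
Left, the percentage of D-type cyclin counts from CCND1, CCND2 and CCND3 in each library; right, the ratio of CCNE1 counts to CCNE2 counts, coloured by group. CCND1 takes its highest shares, 62.1% and 61.1%, and the CCNE1 to CCNE2 ratio its lowest values, 0.839 and 0.876, in the rescue pair. Counts are not scaled by gene length.

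The kinases partnered by these cyclins were both lower in rescue by CPM. CDK4 (chr12:57747727-57756013, minus strand) was at 87.8 and 85.3 CPM in the rescue pair, with 115 and 127 CPM in hypertonic 1 and 2 and 131 and 109.6 CPM in isotonic 1 and 2. Both rescue libraries lay below all 4 others, which overlapped, and CDK4 fell 1.70-fold in rescue against isotonic (log2 fold change -0.76, SE 0.098; edgeR, adjusted p = 0.0128). With library totals this call was lost (log2 fold change -0.47, adjusted p = 0.0749). TSPAN31, on the opposite strand, shares 2485 bases with the CDK4 span and was at 66.6 and 64.0 CPM in the rescue pair. It had 74.5 and 77.0 CPM in hypertonic libraries and 80.8 and 71.3 CPM in isotonic libraries. MARCH9, also on the opposite strand, shares 916 bases. It had 6.54 and 5.51 CPM in rescue, 10.6 and 6.52 CPM in hypertonic and 6.24 and 10.3 CPM in isotonic libraries. Reads of TSPAN31 and MARCH9 in the shared bases cannot be told apart from those of CDK4.

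CDK6 (chr7:92604921-92836594, minus strand) had the most counts of the 10 and the longest span, 231.7 kb. Its level was 346 and 381 CPM in rescue, 559 and 455 CPM in hypertonic 1 and 2, and 441 and 588 CPM in isotonic 1 and 2. Rescue lay below both other groups, but with the wide spread between the libraries of each label CDK6 did not pass (log2 fold change against isotonic -0.81, SE 0.258; edgeR, adjusted p = 0.0921). DESeq2 called it (adjusted p = 0.0359), and it was 1.42-fold lower in the rescue pair than in isotonic 1 alone and 2.10-fold lower than in isotonic 2 alone, each past the edgeR threshold.

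CCNE1, the gene of cyclin E1 (chr19:29811898-29824308, plus strand), had the largest difference of the 10. It was measured at 19.9 and 19.9 CPM in the rescue pair, with 99.3 and 62.5 CPM in hypertonic 1 and 2 and 63.1 and 103 CPM in isotonic 1 and 2. Even the lowest library outside rescue stood at more than 3 times the rescue level. The level in rescue was 5.20-fold lower than in isotonic (log2 fold change -2.38, SE 0.426; edgeR, adjusted p = 0.0256) and 5.08-fold lower than in hypertonic (edgeR, adjusted p = 0.0257). The rescue pair was 3.70-fold lower than isotonic 1 alone and 6.72-fold lower than isotonic 2 alone. No other annotated gene overlaps its span.

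CCNE2, the gene of the second E-type cyclin (chromosome 8, minus strand), differed less between the groups. It was at 23.7 and 22.7 CPM in the rescue pair, with 23.2 and 26.7 CPM in hypertonic 1 and 2 and 26.4 and 23.8 CPM in isotonic 1 and 2. Rescue overlapped the hypertonic values and lay just below the lower isotonic one. The log2 fold change against isotonic was -0.41 (SE 0.129; edgeR, adjusted p = 0.0889), and -0.11 with library totals; DESeq2 called it lower (adjusted p = 3.89e-04). INTS8, on the opposite strand, shares 1977 bases with the CCNE2 span and was at 41.3 and 41.9 CPM in the rescue pair. INTS8 had 36.4 and 48.9 CPM in hypertonic libraries and 48.1 and 37.4 CPM in isotonic libraries. Another stretch of 912 bases is shared with NDUFAF6, also on the opposite strand, a row at 247 and 254 CPM in the rescue pair. NDUFAF6 had 50.5 and 62.1 CPM in hypertonic libraries and 63.0 and 51.5 CPM in isotonic libraries. Reads of INTS8 and NDUFAF6 in those stretches cannot be told apart from those of CCNE2. The ratio of CCNE1 to CCNE2 counts was 0.839 and 0.876 in rescue, 4.29 and 2.34 in hypertonic, and 2.39 and 4.34 in isotonic libraries. CCNE1 thus had fewer counts than CCNE2 in both rescue libraries and more in the other 4. No test of this ratio was run. The counts are not scaled by gene length, and the merged exons span 2550 bases in CCNE1 and 4397 in CCNE2. Per kb of merged exons CCNE1 stayed above CCNE2 in rescue, at 7.81 and 7.79 CPM against 5.40 and 5.15 CPM.

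CDK2, the kinase that cyclin E activates (chr12:55966769-55972784, plus strand), was at 47.2 and 43.6 CPM in the rescue pair, with 72.0 and 72.4 CPM in hypertonic 1 and 2 and 71.6 and 69.4 CPM in isotonic 1 and 2. The 4 libraries outside rescue were close together here, and rescue lay clearly below them. CDK2 fell 1.91-fold against isotonic (log2 fold change -0.93, SE 0.122; edgeR, adjusted p = 0.0131) and 1.96-fold against hypertonic (edgeR, adjusted p = 0.0119). All 6016 bases of its span lie within PMEL, a pigment cell gene on the opposite strand. The PMEL row had 5248 and 4243 counts in rescue, 7456 and 7615 in hypertonic and 7650 and 6374 in isotonic libraries, and the CDK2 row had 5003 and 4008 counts in rescue, 7301 and 7496 in hypertonic and 7539 and 6260 in isotonic libraries. The span of PMEL (55954105-55973317) runs beyond that of CDK2, yet its row held only slightly more counts in each library. The rows of both genes therefore appear to hold largely the same reads, which lie within the CDK2 span. The counts do not give their strand, so the CDK2 values cannot be separated from any PMEL reads there.

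CDC25A, the phosphatase gene (chr3:48157146-48188402, minus strand), was at 46.8 and 44.3 CPM in the rescue pair, with 58.1 and 58.8 CPM in hypertonic 1 and 2 and 58.7 and 59.1 CPM in isotonic 1 and 2. It had the narrowest spread outside rescue, and rescue lay below it. The fall was 1.59-fold against isotonic (log2 fold change -0.67, SE 0.126; edgeR, adjusted p = 0.0269) with TMM scaling, and the call was lost with upper quartile scaling (log2 fold change -0.45, adjusted p = 0.0704), with library totals (-0.37, adjusted p = 0.0895), and with the library labelled hypertonic 1 left out (-0.67, adjusted p = 0.0503).

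E2F1 (chr20:33675683-33686404, minus strand), the transcription factor gene, was at 34.1 and 33.2 CPM in the rescue pair, with 27.9 and 35.8 CPM in hypertonic 1 and 2 and 35.6 and 26.2 CPM in isotonic 1 and 2. Rescue lay within the range of each other group. The log2 fold change against isotonic was -0.16 (SE 0.166; edgeR, adjusted p = 0.525) with TMM scaling and took the other sign with upper quartile scaling (0.05) and library totals (0.12). A p that misses the threshold does not show that the levels were alike.

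**Figure D3:**
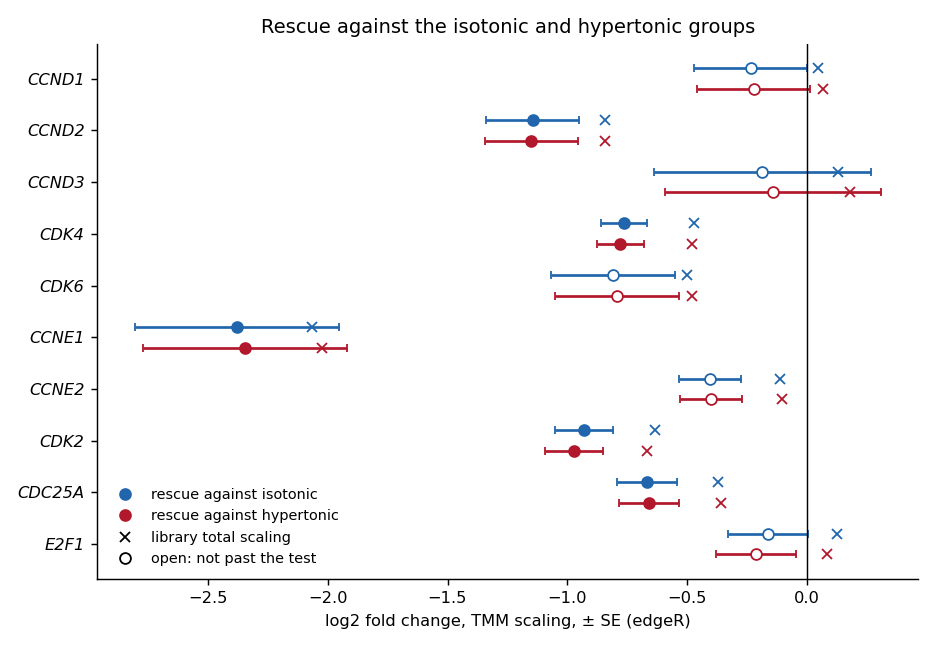
Log2 fold changes (horizontal axis) of rescue against isotonic (blue) and against hypertonic (red) with TMM scaling; bars are the edgeR SE, filled points have an adjusted p under 0.05, and crosses give the value with library totals. CCNE1 stands farthest from 0 at -2.38 and -2.34, and the crosses of CCND1, CCND3 and E2F1 lie on the other side of 0 from their points.

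Promoter sequences were read for E2F1, CDC25A and CCNE1, which are all known E2F targets. Of these, CDC25A and CCNE1 passed the test in rescue, and CCNE1 had the largest fall. The windows ran from 250 bases before to 50 bases after each RefSeq start (GRCh38.p14) and were found for 6 of the 10 genes (CDC25A, CCND3, CDK6, CDK4, CCNE1 and E2F1, 9 windows). They were searched on both strands for 4 forms of the E2F motif, TTTGGCGC, TTTCGCGC, TTTGCCGC and TTTCCCGC. At least 1 form was present in 3.31% of the 35116 windows of this length, and TTTGGCGC in 0.652%. Windows of CDC25A and E2F1 held a match and those of the other 4 genes held none. In CDC25A, TTTGGCGC lay 44 to 37 bases before the start. In E2F1, TTTGGCGC lay 20 to 13 bases before the start, and TTTGCCGC on the other strand lay 33 to 26 bases before it. Below, capitals mark the matches, and CCNE1 is shown from 250 to 131 bases before its start. The E2F1 stretch is chr20:33686386-33686444 and the CDC25A stretch chr3:48188428-48188487, both on the minus strand, and the CCNE1 stretch is chr19:29811741-29811860 on the plus strand.
E2F1: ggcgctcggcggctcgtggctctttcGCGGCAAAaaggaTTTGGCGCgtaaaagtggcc
CDC25A: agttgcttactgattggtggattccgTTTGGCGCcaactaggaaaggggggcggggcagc
CCNE1: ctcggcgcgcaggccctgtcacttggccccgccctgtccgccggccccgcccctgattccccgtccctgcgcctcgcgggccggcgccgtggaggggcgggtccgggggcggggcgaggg
Of the pair with a match, CDC25A passed the test in rescue and E2F1 did not. A match is a string of letters in these windows, and factor binding was not measured. The lack of a match in CCNE1 covers only these 4 forms in this window and does not show a lack of E2F control.

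Hypertonic against isotonic libraries address the effect of raised sodium on these transcripts. As labelled, 0 of the 10 genes passed, beside 0% of all 18208 genes (edgeR quasi-likelihood test; 52 genes had an unadjusted p under 0.05). The smallest unadjusted p among the 10 was 0.742, for CDK2, and DESeq2 called 1 gene of all and limma voom 0, none of them among the 10. The log2 fold changes lay between -0.04 (CCND3) and 0.05 (E2F1), since opposite differences in number 1 and number 2 cancelled in the group means.

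Within the numbers, 8 of the 10 genes had log2 ratios of CPM of opposite sign. Opposite differences were general, since same-numbered hypertonic and isotonic libraries deviated from their group means with a correlation across genes of -0.961. CCNE1 was 1.57 times as high in hypertonic 1 as in isotonic 1 by CPM, and 0.605 times as high in hypertonic 2 as in isotonic 2. CCND3 had ratios of 1.65 and 0.559, and CDK6 of 1.27 and 0.774. CCND2 followed the same order with smaller ratios of 1.16 and 0.863. CCND1 went the other way, with ratios of 0.646 in number 1 and 1.52 in number 2, as did E2F1 (0.783 and 1.37), CDK4 (0.876 and 1.16) and CCNE2 (0.876 and 1.12). CDK2 (1.01 and 1.04) and CDC25A (0.989 and 0.994) were close to 1 in both numbers. The signs for CDK2 and CDC25A depended on the scaling. With TMM scaling the log2 fold changes in number 1 and number 2 were 0.17 and -0.08 for CDK2 and 0.14 and -0.15 for CDC25A. Those of CDK4 (-0.03 and 0.07) and CCNE2 (-0.03 and 0.03) were small on that scale.

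In the edgeR fit of hypertonic 1 against isotonic 1, where 64.2% of all genes passed, CCND2, CCND3, CDK6 and CCNE1 were higher and CCND1 lower in hypertonic than in isotonic, beside 31.6% of all genes higher and 32.6% lower. In that of hypertonic 2 against isotonic 2, where 63.9% passed, CCND2, CCND3, CDK6 and CCNE1 were lower and CCND1 and E2F1 higher, beside 31.0% of all genes lower and 32.9% higher. So the signs of CCND1, CCND2, CCND3, CDK6 and CCNE1 were opposite in number 1 and number 2. The share of all genes with opposite signs was not counted. These fits take the spread of single libraries to be that of the rescue pair, and no direction of the response to sodium can be taken from these labels. The pair of libraries with higher CCNE1, hypertonic 1 and isotonic 2, also held more CCND2, CCND3 and CDK6 and less CCND1, E2F1, CDK4 and CCNE2 than hypertonic 2 and isotonic 1.

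**Figure D4:**
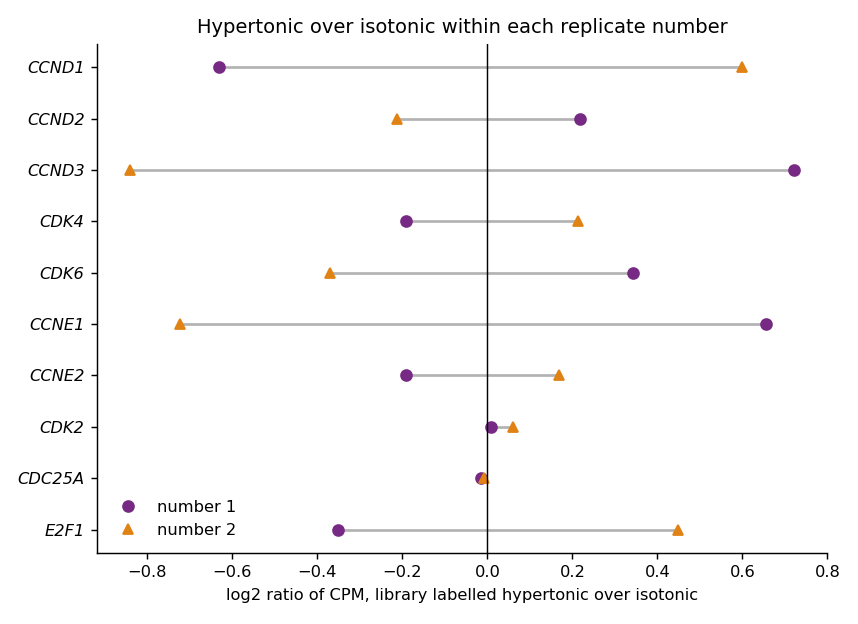
Log2 ratio of CPM in the library labelled hypertonic over that labelled isotonic (horizontal axis) within number 1 (circles) and number 2 (triangles), 1 library over 1 library. The signs are opposite for 8 of the 10 genes, from -0.63 and 0.60 for CCND1 to 0.72 and -0.84 for CCND3, while CDC25A sits near 0 in both. With TMM scaling, not drawn here, CDC25A had 0.14 and -0.15 and CDK2 had 0.17 and -0.08.

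Other genes of the pathway were counted by lists. Of 12 retinoblastoma proteins and E2F or DP factors, 4 fell and 1 rose in rescue against isotonic, beside 13.5% of all genes lower and 9.61% higher, with a median log2 fold change of -0.38. TFDP1, a DP partner of E2F1 and other E2F proteins, was at 107 and 107 CPM in the rescue pair. Outside rescue it had 187 and 177 CPM in hypertonic libraries and 177 and 184 CPM in isotonic libraries. In rescue it was 2.07-fold lower than in isotonic (edgeR, adjusted p = 0.0127). E2F4, a factor of the repressive complexes of resting cells, was 2.77-fold lower (adjusted p = 0.0237), and RB1, the retinoblastoma gene, 1.72-fold lower (adjusted p = 0.0401, both edgeR). E2F7, an atypical repressor of the E2F family, rose to 255 and 263 CPM in the rescue pair, against 103 and 124 CPM in hypertonic and 124 and 102 CPM in isotonic libraries (1.88-fold higher than isotonic; edgeR, adjusted p = 0.0113). With library totals only TFDP1 of the 4 kept its call and E2F7 kept its own. E2F1 thus did not pass, while its partner TFDP1 was lower and the repressor E2F7 higher.

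Of 7 CDK inhibitor genes 6 were tested; 1 fell and none rose, beside the same 13.5% and 9.61% of all genes, and their median was 0.42. CDKN2C, of the INK4 inhibitors of CDK4 and CDK6, was 2.995-fold lower than isotonic (edgeR, adjusted p = 0.0401), at 9.59 and 9.22 CPM in the rescue pair, with 16.4 and 29.1 CPM in hypertonic libraries and 29.7 and 16.9 CPM in isotonic libraries; with library totals it did not pass. CDKN1A, the p21 inhibitor of CDK2, was at 562 and 526 CPM in the rescue pair, with 253 and 102 CPM in hypertonic libraries and 105 and 252 CPM in isotonic libraries. Both rescue libraries were above all others, but CDKN1A did not pass as labelled (edgeR, adjusted p = 0.245), and passed against isotonic 1 alone and against isotonic 2 alone. CDKN1C, the p57 inhibitor, was named after its values were seen. It had 15.3 and 13.97 CPM in the rescue pair, 4.27 and 2.23 CPM in hypertonic and 2.25 and 3.55 CPM in isotonic libraries, 4.07-fold higher than isotonic without passing (edgeR, adjusted p = 0.0513). It passed as higher with library totals, upper quartile scaling, DESeq2 and voom, and in the contrast with both groups together (edgeR, adjusted p = 0.0267). CDKN2A was near 0, with 0.340 and 0.304 CPM in the rescue pair and 0.155 to 0.174 CPM in the others, with an adjusted p of 0.301 (edgeR).

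Of 16 genes for cyclin turnover and CDK activity, 3 fell and none rose, a share near the 13.5% of all genes that were lower (median -0.49). CKS2, a small CDK-binding subunit, was 2.26-fold lower than isotonic (edgeR, adjusted p = 0.0133), CUL1, the scaffold of the SCF ubiquitin ligase, 1.89-fold (adjusted p = 0.0167) and CKS1B 1.45-fold (adjusted p = 0.0396, both by the same edgeR test). With library totals the call of CKS1B was lost. Of 8 later cyclins and kinases, CCNB1 (2.58-fold) and CCNB2 (2.27-fold), the mitotic B-type cyclins, fell and none rose, beside 13.5% of all genes lower, with a median of -0.95; with library totals neither passed. Cyclin A2 (CCNA2), which follows cyclin E as partner of CDK2, was at 84.2 and 81.8 CPM in the rescue pair, with 95.2 and 174 CPM in hypertonic libraries and 175 and 94.5 CPM in isotonic libraries (edgeR, adjusted p = 0.122).

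Of 18 S phase genes known as E2F targets, 9 fell and none rose, beside 13.5% of all genes lower, with a median of -0.60. RRM2, the small subunit of ribonucleotide reductase, was at 127 and 123 CPM in the rescue pair, with 339 and 351 CPM in hypertonic libraries and 358 and 341 CPM in isotonic libraries (3.44-fold lower than isotonic; edgeR, adjusted p = 0.00835). The 4 other libraries were close together, as for CDK2 and CDC25A. UHRF1, a factor for DNA methylation upkeep, was 2.16-fold lower, RRM1, the large reductase subunit, 2.09-fold and MCM4, of the replicative helicase, 1.75-fold, each past the edgeR threshold. PCNA, the polymerase clamp gene, had a log2 fold change of 0.29 and did not pass. With library totals 5 of the 18 fell, beside 1095 of all 18208 genes. With the replicate block 0 genes of any list passed against isotonic or against hypertonic, and in the contrast with both together E2F7 (higher), RRM2 and TYMS (lower) did. Against isotonic 1 alone and isotonic 2 alone, 16 and 14 of the 18 were lower in the rescue pair, beside 38.6% and 40.1% of all genes. Against hypertonic, in the order of the lists above, 4, 1, 2, 2 and 9 genes fell, and 1 rose, in the first list. Between hypertonic and isotonic, 0 genes of these lists passed (edgeR).

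**Figure D5:**
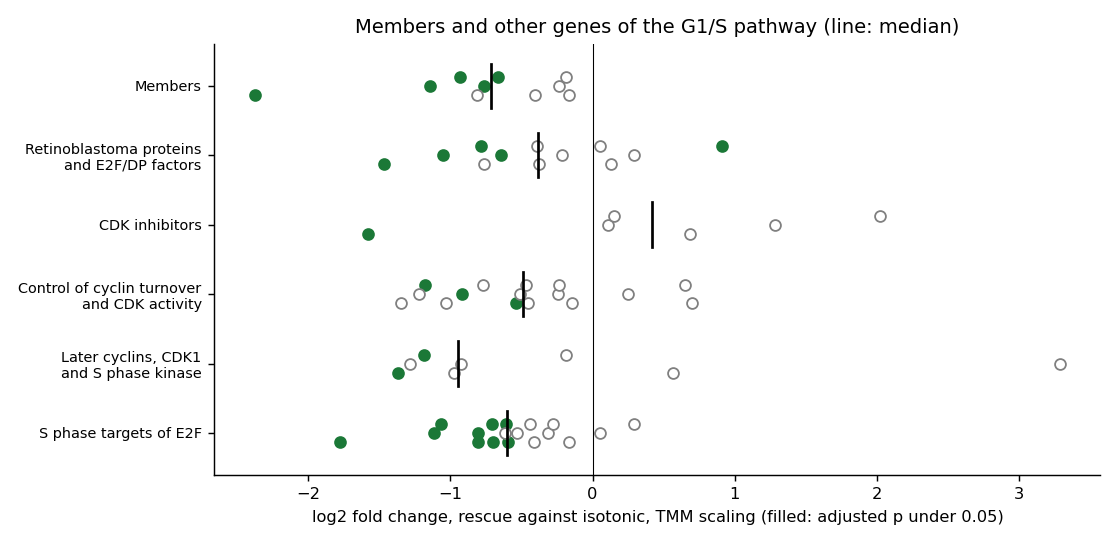
Log2 fold change of rescue against isotonic (horizontal axis, TMM scaling) for the 10 genes and 5 lists of other pathway genes; filled points have an adjusted p under 0.05 and lines are medians. The medians are -0.72 for the 10 genes and -0.60 for the S phase targets, and 0.42 for the CDK inhibitors; the point farthest right is CCNA1, which is at or below 0.151 CPM in every library.

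Levels of different genes were compared per kb of merged exons. On that scale CCND1 averaged 44.6 CPM per kb over the 6 libraries, CDK6 37.7 and CDK4 34.5, and the ranges of the 3 overlapped. CCNE1 moved most in this order, with 7.81 and 7.79 CPM per kb in rescue against 24.5 to 40.5 CPM per kb in the others. CCND3 (3.66 to 6.55 CPM per kb) and CCNE2 (5.15 to 6.07 CPM per kb) were lowest and overlapped. Per kb of the whole gene span CDK6 ranked 7 of 10 in place of 2, since its span is mostly intron, while CCND1 stayed first and CCND3 last. Which parts of a gene were counted is not given in the sources used here.

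Genes with the most similar profile were sought among the 13117 genes averaging 5 CPM or more, by the Euclidean distance of centred log2(CPM + 0.5) over the 6 libraries. Closest to CCNE1 were CCNJL, a cyclin J-like gene (distance 0.20), SMURF2, a ubiquitin ligase gene (0.29), and UAP1 (0.35). CCND2 lay nearest to SKIL (0.03), a corepressor of SMAD signalling, and to UHRF1 (0.05). CDK6 lay nearest to PIAS1 (0.03), CDK2 to CLPTM1L (0.04) and CDK4 to ZDHHC11 (0.03). E2F1 lay nearest to KHNYN (0.02), CCND1 to ITGAE (0.04), CCND3 to KDM3A (0.06) and CCNE2 to the ribosomal protein gene RPL34 (0.04). Of these 9 genes, CCNE1 had the most distant nearest profile. The values were not scaled, so distances grow with the size of the changes, which was largest for CCNE1. Since the 6 libraries fall into 3 close pairs, such distances rest on few independent values and are a description only.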

How the data were processed

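Per the labels' protocols, RNA of U2OS cells was depleted of ribosomal RNA, converted with a strand-marking uridine digestion and read on a HiSeq 2000. The tools named in the submitters' processing notes are bcl2fastq, TopHat2, Bowtie2 and bedtools, with GRCh38 (hg38); no version, annotation or counting strand is given in the sources used here. What the authors deposited are raw counts by gene symbol, 1 table of 19940 rows per library, with no normalization. The near-equal rows of CDK2 and PMEL can arise when both strands are counted and shared reads enter both rows.

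From these counts CPM was computed by library total. All 6 libraries entered 1 edgeR 4.0.16 quasi-likelihood model (R 4.3.3; filterByExpr, TMM, robust, a mean per group), which tested 18208 genes with a two-sided threshold of 0.05 after Benjamini-Hochberg adjustment over all of them, at a biological coefficient of variation of 38.4% and 3 residual degrees of freedom. DESeq2 1.42.0, limma 3.58.1 voom, other scalings and filters, a replicate block, each library left out and fits within each replicate number were alternatives. Fits within a number keep both rescue libraries and 1 library of each other group, and take their spread from the rescue pair. The SE is the log2 fold change over the root of F. Counts limit precision for low genes (3 counts are 0.0283 to 0.0333 CPM).

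Coordinates, spans and overlaps of the 10 genes are from GENCODE 29 (GRCh38), and promoters from RefSeq (GRCh38.p14); row overlaps of the other genes were not examined. The 10 genes and the lists were chosen with earlier results of these data known. Named besides the 10 were up to 4 genes per list with the largest change past the test in rescue against isotonic, CDKN1A, CDKN2A and RB1, and for each of the 10 up to 3 nearest profiles (those of CDC25A are not reported here); CCNA2, CDKN1C, PCNA, TYMS and the overlapping rows were added after their values were seen. Same-numbered hypertonic and isotonic libraries deviated from their group means with a correlation across genes of -0.961. This value follows from the crossed likeness of these libraries, so it cannot decide whether the numbers pair the samples.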

Additional observations from a re-analysis of the deposited data

How the results depend on the processing

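Calls rested on the 6-library fit. No gene passed in rescue against isotonic or against hypertonic with the replicate block, with counts of 0 for all genes and 0 for the 10; in the joint contrast 1099 genes passed and 0 of the 10. Whether libraries with the same number belong together is not known. With the crossed pairing of hypertonic and isotonic libraries as a term, chosen after seeing the data, 6 of the 10 were called in rescue against isotonic, against hypertonic and in the joint contrast, beside 28.2%, 28.9% and 38.5% of all genes, and 0 in hypertonic against isotonic. Leaving out 1 library gave 0 to 3460 genes and 0 to 5 of the 10 for rescue against isotonic, 0 to 3691 and 0 to 5 against hypertonic, and 0 to 4966 and 0 to 6 in the joint contrast; the 0 came from leaving out either rescue library or either library of the other group of a pair, which leaves that group with 1 library assumed to vary like the others. Beside 17.3% and 17.6% of all genes, library totals left 3 of the 10 called (CCND2, CCNE1 and CDK2) in rescue against isotonic and 3 against hypertonic. They moved the share of higher calls to 65.2% in rescue against isotonic and 65.8% against hypertonic (59.8% and 59.6% with upper quartile scaling), against 41.6% and 41.7% with TMM scaling, and to 68.6% in the joint contrast (62.3% with upper quartile scaling), against 46.2%. DESeq2 called 7041 and 7105 genes in those comparisons and 1 in hypertonic against isotonic; the cause was not tested.

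With both rescue libraries and only the number 1 libraries of the other groups, 14591 genes and 10 of the 10 passed in rescue against isotonic, 15027 and 8 against hypertonic, 11841 and 5 in hypertonic against isotonic, and 15262 and 9 in the joint contrast. With those of number 2 the counts were 14898 and 8, 14586 and 10, 11776 and 6, and 15258 and 9. Signs turned in these fits for CCND3 in rescue against isotonic (0.33, number 1) and against hypertonic (0.41, number 2). That of CCND1 turned in rescue against isotonic (0.03, number 2) and against hypertonic (0.01, number 1). In hypertonic against isotonic, number 1, signs turned for CCND3 (0.88), CDK6 (0.50), CCNE1 (0.81), CDC25A (0.14), CDK4 (-0.03) and E2F1 (-0.19). In number 2 of that comparison they turned for CCND1 (0.46), CCND2 (-0.35), CCNE2 (0.03) and CDK2 (-0.08). Depth did not limit the 10 genes, whose lowest count was 1826.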
